A study of Mus musculus with 4 samples.

Results

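The genes described here are 45 genes of mitosis, from the cyclins and kinases that start it to the proteins that divide the cell. They were taken by symbol from a table of 24340 genes, and all 45 were found and passed the filter on low values, a mean of at least 1 FPKM (fragments per kilobase of transcript, scaled to the depth of the library) over the libraries. RNA was measured in lineage-negative, Kit-positive bone marrow cells of C57BL/6 mice, a sort that enriches immature blood cells. All 4 groups carried JAK2V617F, an activated form of the kinase JAK2 that is known from myeloproliferative neoplasms. The groups were Tet2-/- cells given ruxolitinib, Tet2-/- control cells, Tet2+/+ cells given ruxolitinib and Tet2+/+ control cells, with 1 library each. Ruxolitinib inhibits JAK1 and JAK2, and Tet2 encodes an enzyme that oxidises methylated cytosine. Cells were treated after they had been taken from the marrow. The loss of Tet2 was modelled by a conditional allele in blood-forming cells, and the Flt3ITD allele that the study's design also names is not in the genotypes of these 4 libraries. The Cre driver, the age and number of mice, and the dose and time of the drug were not given in the sources used here.

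With 1 library per group no difference below has a replicate check and none has a p-value of its own. Ratios are log2 ratios of (FPKM + 1), knockout over wild type or ruxolitinib over control. They are read against all 10471 genes that passed the same filter, called measured genes. Steps between the lowest FPKM values put the depth at about 44300000 to 54600000 fragments per library. At that depth each mitosis gene rested on an estimated 774 to 31761 fragments, and counting alone would give a log2 ratio a standard error of 0.012 to 0.073. Those errors leave out the spread between animals and cultures. Xist, which acts in X inactivation of female cells, was at 62.2 FPKM with ruxolitinib and 53.2 FPKM without it in the knockout, against 0.0309 FPKM with and 0.0241 FPKM without it in wild type, so sex and genotype cannot be told apart. Tet2 itself was at 4.39 and 3.62 FPKM in the knockout libraries, against 5.05 and 4.69 FPKM in wild type, and a whole-gene value does not check the loss of an exon. Jak2 was at 24.9 and 24.5 FPKM in the knockout libraries with and without ruxolitinib, against 35.1 and 36.8 FPKM in wild type. Any bearing of that difference on the mitosis genes was not tested. Kit lay between 421 and 647 FPKM, while the mast cell protease Cma1 lay between 8289 and 15834 FPKM. Of 12 lymphoid markers, 7 were at 0 in all 4 libraries, and so was the progenitor gene Flt3.

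Mitosis is set off by the kinase Cdk1 bound to cyclin B, once phosphatases remove the brake on it. Polo-like and Aurora kinases then build the spindle, kinetochores tie chromosomes to it, and the spindle checkpoint holds the cell until every chromosome is attached. The anaphase-promoting complex (APC/C) next marks cyclin B and securin for destruction, which frees separase to cut the cohesin that holds sister chromatids together. Most genes of this programme are transcribed late in the cell cycle, under the factors Foxm1, B-Myb with the MuvB complex, and NF-Y. Their summed RNA in a bulk sample depends on how many cells are near division as well as on the RNA per cell, and fewer dividing cells and less RNA per cell cannot be told apart here.

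Almost every mitosis gene had higher levels in the Tet2 knockout libraries than in the wild-type libraries, with and without drug, by a modest amount that varied from gene to gene. For 43 of the 45 genes both knockout libraries lay above both wild-type libraries, an order found for 28.2% of measured genes. The 2 exceptions were Pttg1, which encodes securin and was lower in both knockout libraries, and Cenpa, the histone H3 variant of centromeres, whose 4 values overlapped. Summed over the 45 genes, the level was 2048 FPKM in the knockout with ruxolitinib and 2025 FPKM in the knockout control, against 1583 FPKM in wild type with ruxolitinib and 1542 FPKM in the wild-type control. The highest of the 4 values was in a knockout library for 43 genes, in 29 cases the one with ruxolitinib and in 14 the control. The lowest was in the wild-type control library for 32 genes. Counts of the highest and lowest library were not made over all measured genes, so whether they are particular to this list cannot be told. The 45 genes lie on 16 chromosomes, and only Kif4 among them is on the X.

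Promoters are shown because genes of this programme are known to share elements close to their start. Windows from 250 bases before to 50 bases after the start were taken from RefSeq (build GRCm38.p6, which has the mm10 coordinates) and matched 38 of the 45 genes. Aurkb, Ccna2, Foxm1, Cdc25c, Incenp, Tpx2 and Kif20a had no window and are left out of the shares below. The letters searched, on both strands, were CCAAT, the box bound by NF-Y, and TTTGAA and TTTAAA, 2 forms of the cell cycle genes homology region (CHR) through which MuvB complexes act. TTTGAA was present for 28 of the 38 genes, or 73.7%, against 14.2% of 7963 measured genes and 20.2% of all 27025 genes with a window. CCAAT was present for 76.3% of the mitosis genes, against 43.4% of measured and 41.1% of all genes. TTTAAA was present for 23.7%, against 10.6% and 14.9%. Of 30 S phase replication genes with a window, 13.3% held TTTGAA and 63.3% held CCAAT. Of 40 TTTGAA matches in the mitosis windows, 75% began within 50 bases of the start, compared with 24.5% of 1337 matches in windows of measured genes. Matches were counted per window, and the 38 genes had 41 windows. A site in overlapping windows of 1 gene, as for Ect2, Prc1 and Bub3, was thus counted more than once. A match is a string of letters and not a shown binding site. The 120 bases before the start are given for 6 genes, with matches in capitals (ATTGG is CCAAT and TTCAAA is TTTGAA on the other strand).
Top2a (chr11:99024190-99024309, minus strand): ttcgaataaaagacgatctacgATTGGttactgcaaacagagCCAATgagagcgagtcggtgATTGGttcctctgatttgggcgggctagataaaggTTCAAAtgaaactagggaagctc
Cdk1 (chr10:69352913-69353032, minus strand): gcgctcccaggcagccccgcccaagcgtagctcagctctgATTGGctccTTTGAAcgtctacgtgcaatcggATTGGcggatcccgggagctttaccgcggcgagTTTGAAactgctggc
Ube2c (chr2:164769809-164769928, plus strand): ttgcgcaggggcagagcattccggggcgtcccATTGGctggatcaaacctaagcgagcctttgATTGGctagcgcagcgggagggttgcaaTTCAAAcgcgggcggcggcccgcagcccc
Cdc20 (chr4:118437344-118437463, minus strand): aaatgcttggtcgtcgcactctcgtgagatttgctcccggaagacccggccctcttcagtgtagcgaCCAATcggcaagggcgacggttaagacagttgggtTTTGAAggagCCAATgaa
Espl1 (chr15:102296173-102296292, plus strand): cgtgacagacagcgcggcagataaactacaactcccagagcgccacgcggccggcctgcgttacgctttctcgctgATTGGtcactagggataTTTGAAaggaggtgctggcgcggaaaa
Pttg1 (chr11:43425982-43426101, minus strand): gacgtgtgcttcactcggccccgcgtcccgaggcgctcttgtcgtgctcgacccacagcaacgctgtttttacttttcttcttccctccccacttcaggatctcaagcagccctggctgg
These 6 are a gene past 1.5-fold, the entry kinase and the 4 genes of mitotic exit, whose ratios run in both directions. The stretch of Top2a held 3 CCAAT boxes and 1 TTTGAA, and that of Cdk1 held 2 of each. Pttg1, whose RefSeq start lies inside the locus the authors deposited for it, had none of these letters in its whole window, which says nothing of the factors that act on it. Mad2l1, Nuf2 and Nusap1 had none either, and they were higher in the knockout without drug by log2 ratios of 0.54, 0.50 and 0.44. The RefSeq start of Nusap1 also lies inside its deposited locus, and that of Mad2l1 lies outside its own. An absent match thus holds only for the window used. The 28 genes with TTTGAA had a median knockout ratio of 0.42 without drug and the 10 without it one of 0.38, and the ratios of both sets overlapped.

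Without drug, the 45 genes had a median log2 ratio of 0.43 between the knockout and the wild-type library, while the median of all measured genes was 0.00. Positive ratios were found for 43 of them, compared with 50.4% of measured genes. At 1.5-fold or more, 6 were higher and 0 were lower, or 13.3% of the list against a background of 3.88% higher and 5.06% lower. These 6 were Aurkb, Ndc80, Top2a, Bub1, Ttk and Ccna2, and the next was Espl1 with a log2 ratio of 0.57. None reached 2-fold. In the authors' deposited table, which sets 1 library against 1 library, 26 of the 45 genes had a q-value of at most 0.05 and were higher in the knockout, as were 9.37% of the genes tested there. None of them was lower at that q-value, against 9.68% of tested genes. Such a q-value compares the libraries and not the genotypes. Rescaled so that each library sums to the same total (TPM), the median of all measured genes moved to 0.15 and that of the mitosis genes to 0.58, and 22 of the 45 were at least 1.5-fold higher, compared with 8.08% of measured genes. On that scale 66.7% of all calls at 1.5-fold were higher in the knockout, compared with 43.4% of calls on FPKM as deposited.

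With ruxolitinib in both genotypes the knockout ratios were nearly the same. The median was 0.39, beside 0.00 for all measured genes, and 44 of the 45 ratios were positive, compared with 50.2% of measured genes. Only Ndc80 was at least 1.5-fold higher and 0 genes were as far lower, or 2.22% of the list against backgrounds of 2.97% and 3.34%. At the 1.5-fold rule the share of the list was thus near the background, and it is the median and the signs that lay apart from it. The authors' deposited table again had 26 of the 45 genes higher at a q-value of at most 0.05, beside 7.39% of tested genes, and 0 lower, beside 6.21%. On the TPM scale the median was 0.53, with 0.13 for all measured genes, and 14 mitosis genes were at least 1.5-fold higher, compared with 5.88% of measured genes. On that scale 67.7% of all calls were higher in the knockout, compared with 47.0% on FPKM as deposited. The pairs of libraries behind the ratios without and with drug are separate. Across the 45 genes their correlation was 0.91 by Pearson's r and 0.86 by Spearman's rank coefficient, a description only, since genes are not independent and expression level, transcript length and genotype are shared by both. For 31 of the 45 genes the ratios without and with drug differed by less than 0.1. Neither this count nor the correlation was made over all measured genes, so whether they are particular to this list cannot be told.

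**Figure D1:**
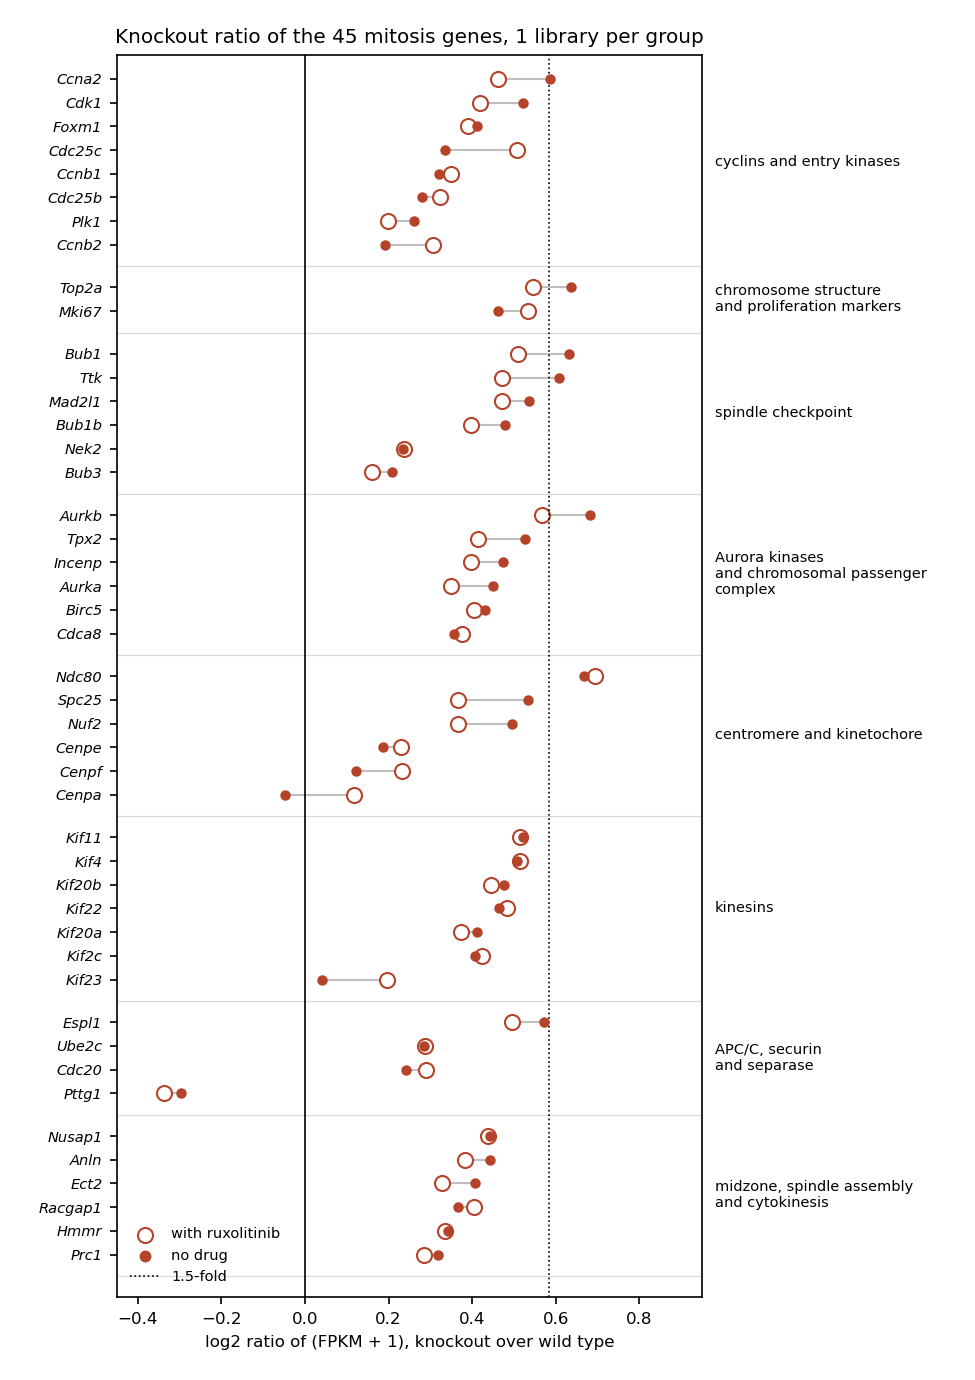
Log2 ratio of (FPKM + 1), knockout over wild type, for each of the 45 mitosis genes by function, from 1 library per group; open circles are libraries with ruxolitinib, filled circles those without drug, and the dotted line marks 1.5-fold. All but Pttg1, at -0.34 and -0.30, and Cenpa without drug, at -0.05, lie right of 0, and only Ndc80 lies beyond 1.5-fold in both.

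Among the genes that start mitosis, all 8 had positive knockout ratios, with medians of 0.37 with ruxolitinib and 0.33 without. Ccna2 (chromosome 3, 36552606 to 36571996, mm10) encodes the cyclin of S phase and early mitosis. Positions given here and for later genes are the loci the authors deposited, which can be wider than the gene. Ccna2 was at 94.5 FPKM with ruxolitinib and 93.6 without it in the knockout, against 68.4 with and 62.0 without it in wild type. Its knockout ratio was 0.46 with drug and 0.59 without. Of its exon bases 12.5% overlap Exosc9 on the other strand, and the use of strand in counting was not given in the sources used here.

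Cdk1 (chromosome 10, 69336635 to 69352912), the kinase that drives entry, was at 51.7 FPKM with ruxolitinib and 57.5 without it in the knockout, against 38.4 with and 39.7 without it in wild type. Its partner Ccnb1 was at 16.2 and 17.7 FPKM in the knockout libraries with and without ruxolitinib, against 12.5 and 14.0 FPKM in the wild-type libraries in the same order. Ccnb2, the other B-type cyclin, was at 98.5 and 82.6 FPKM in the knockout and 79.4 and 72.2 FPKM in wild type, again with drug first. Genes for both B cyclins thus differed less between genotypes than Cdk1 without drug, at log2 ratios of 0.32 and 0.19 beside 0.52. Ccnb2 was the more abundant by level per length in each library, with Ccnb1 at 0.158 to 0.214 of it. Annotated pseudogenes are named after Ccnb1 and Ccnb2, so reads shared with them make both values uncertain.

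Plk1, the polo-like kinase that activates Cdk1 and matures the spindle poles, was at 34.6 FPKM with ruxolitinib and 36.4 without it in the knockout, against 30.04 with and 30.2 without it in wild type. Foxm1, the transcription factor of late cell cycle genes, was at 29.2 and 25.7 FPKM in the knockout and 22.03 and 19.1 FPKM in wild type, in the same order. The 2 phosphatase genes that remove the brake on Cdk1 had ratios of 0.28 for Cdc25b and 0.34 for Cdc25c without drug, and of 0.32 and 0.51 with it. For each of these genes the knockout and wild-type libraries did not overlap.

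Top2a (chromosome 11, 98992947 to 99024189), the topoisomerase that untangles chromosomes before they part, was at 113.9 FPKM with ruxolitinib and 115.8 without it in the knockout, against 77.7 with and 74.1 without it in wild type. Mki67, the gene of the Ki-67 proliferation antigen, which coats mitotic chromosomes, was at 57.0 and 51.5 FPKM in the knockout and at 39.1 and 37.1 FPKM in wild type, with ruxolitinib first. Both thus lay in 2 separate ranges by genotype. Their promoters carry the CCAAT and TTTGAA letters described above.

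The spindle checkpoint genes had positive knockout ratios in 6 of 6 cases, with medians of 0.43 with drug and 0.51 without. Bub1, a checkpoint kinase at kinetochores, was at 17.6 FPKM with ruxolitinib and 18.9 without it in the knockout, against 12.1 with and 11.9 without it in wild type. Ttk, the kinase (also called Mps1) that starts checkpoint signalling, was at 12.3 and 12.5 FPKM in the knockout and 8.60 and 7.83 FPKM in wild type, with ruxolitinib first. Both were past 1.5-fold without drug, at ratios of 0.63 and 0.61, and under it with drug, at 0.51 and 0.47. Mad2l1, which forms the inhibitor of the APC/C, and Bub1b, another part of that inhibitor, had ratios of 0.54 and 0.48 without drug. Bub3, which carries Bub1 and Bub1b to kinetochores, was at 78.9 and 81.6 FPKM in the knockout and at 70.5 FPKM in both wild-type libraries, the smallest differences of the 6, with log2 ratios of 0.16 with drug and 0.21 without. Nek2, a kinase that separates the spindle poles, came next, at 0.24 with drug and 0.23 without.

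The Aurora kinases and their partners had medians of 0.40 with ruxolitinib and 0.46 without. Aurkb (chromosome 11, 69045643 to 69051662), the kinase that corrects faulty attachments, had the highest ratio of all 45 genes without drug, 0.68. It was at 49.8 FPKM with ruxolitinib and 53.6 without it in the knockout, against 33.3 with and 33.1 without it in wild type. The libraries of one genotype were thus far closer to each other than to those of the other.

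Aurkb works in the chromosomal passenger complex with survivin (Birc5), borealin (Cdca8) and Incenp. Birc5 was at 110.1 and 108.04 FPKM in the knockout libraries with and without ruxolitinib, against 82.9 and 79.8 FPKM in wild type. Cdca8 was at 75.3 and 80.3 FPKM in the knockout and 57.8 and 62.5 FPKM in wild type, and Incenp had ratios of 0.40 with drug and 0.47 without. All 4 genes of the complex were higher in both knockout libraries, though by different amounts, from 0.36 for Cdca8 to 0.68 for Aurkb without drug. Aurka, the Aurora kinase of spindle poles, and its activator Tpx2 had ratios of 0.45 and 0.53 without drug and 0.35 and 0.41 with it. The level of Aurkb was 1.57 and 1.504 times that of Aurka in the knockout libraries with and without ruxolitinib, and 1.35 and 1.28 times in the wild-type libraries.

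Centromere and kinetochore genes ranged widely, from 0.12 to 0.69 with drug and from -0.05 to 0.67 without. Ndc80 (chromosome 17, 71496100 to 71526857), the outer kinetochore protein that grips microtubules, was at 28.2 FPKM with ruxolitinib and 24.96 without it in the knockout, against 17.0 with and 15.3 without it in wild type. It was the only gene past 1.5-fold in both pairs of libraries, at 0.69 with drug and 0.67 without. Nuf2 and Spc25, which belong to the same 4-part complex, had ratios of 0.50 and 0.53 without drug and of 0.37 each with it. Cenpa, Cenpe and Cenpf differed less between genotypes than Ndc80, Nuf2 and Spc25. Cenpa (chromosome 5, 30666886 to 30674837) was at 74.99 FPKM with ruxolitinib and 73.6 without it in the knockout, against 69.1 with and 76.1 without it in wild type. Its ratio was -0.05 without drug and 0.12 with it, and on the TPM scale the first turned positive, so no direction can be given. The motor Cenpe and the kinetochore protein Cenpf had ratios of 0.19 and 0.12 without drug and of 0.23 each with it.

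The kinesins, motors that move along microtubules, had similar knockout ratios in 6 of 7 cases. Kif11 (Eg5), which pushes spindle poles apart, was at 45.9 FPKM with ruxolitinib and 41.9 without it in the knockout, against 31.9 with and 28.9 without it in wild type. Kif4, Kif20b, Kif22, Kif20a and Kif2c had ratios between 0.41 and 0.51 without drug, and between 0.37 and 0.51 with it. Kif4 is X-linked, shares 15.1% of its exon bases with Pdzd11 on the other strand and has an annotated pseudogene, as does Kif22. For Kif20a the shared part, with Cdc23, is 29.3%. Kif23 (chromosome 9, 61917278 to 61946799), the motor of the spindle midzone, stood apart from the others. It was at 23.6 FPKM with ruxolitinib and 20.7 without it in the knockout, against 20.5 with and 20.1 without it in wild type, so the control libraries of both genotypes differed by a log2 ratio of 0.04 and those with drug by 0.20.

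The exit genes differed in both directions. Espl1 (chromosome 15, 102296293 to 102324356), the protease separase, was at 12.8 FPKM with ruxolitinib and 12.1 without it in the knockout, against 8.76 with and 7.84 without it in wild type. Pttg1 (chromosome 11, 43420248 to 43426248), the securin that holds separase inactive, was at 35.1 FPKM with ruxolitinib and 33.4 without it in the knockout, against 44.7 with and 41.2 without it in wild type. The enzyme and its inhibitor thus differed in opposite directions, at log2 ratios of 0.50 and -0.34 with drug and 0.57 and -0.30 without. Espl1 stood at 0.363 and 0.364 of the level of Pttg1 in the knockout libraries with and without ruxolitinib, and at 0.196 and 0.190 in the wild-type libraries. The authors' deposited table gave Pttg1 q-values of 0.11 with drug and 0.181 without, and Espl1 0.0025 and 0.000746. Pttg1 was lower in the knockout on the TPM scale too.

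The activators of the APC/C lay between these. Cdc20, the coactivator that the checkpoint blocks, was at 47.5 FPKM with ruxolitinib and 48.1 without it in the knockout, against 38.7 with and 40.5 without it in wild type. Ube2c, the ubiquitin-conjugating enzyme that serves the complex, had the highest level per length of the 45 genes in every library, from 102.9 to 138.3 FPKM, and a knockout ratio of 0.29 with drug and without. It shares 22.8% of its exon bases with Tnnc2 on the other strand, a gene at under 0.2 FPKM in each library. For both genes the knockout libraries lay above the wild-type libraries, by less than the median of the 45.

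The genes of the midzone, spindle assembly and cytokinesis had ratios close to each other, from 0.29 to 0.44 with drug and from 0.32 to 0.44 without. Nusap1, which bundles microtubules around chromosomes, was at 52.5 FPKM with ruxolitinib and 48.4 without it in the knockout, against 38.5 with and 35.3 without it in wild type. Prc1, the crosslinker of the midzone, was at 54.9 and 52.8 FPKM in the knockout and at 44.9 and 42.1 FPKM in wild type, with ruxolitinib first, and overlaps Rccd1 on the other strand by 11.1% of its exon bases. These 2 bounded the group without drug. Anillin (Anln), the cytokinesis regulator Ect2, its partner Racgap1 and the hyaluronan-binding spindle protein Hmmr lay between them. Racgap1 and Kif23, which form the centralspindlin complex, thus had unlike ratios, 0.37 and 0.04 without drug.

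**Figure D2:**
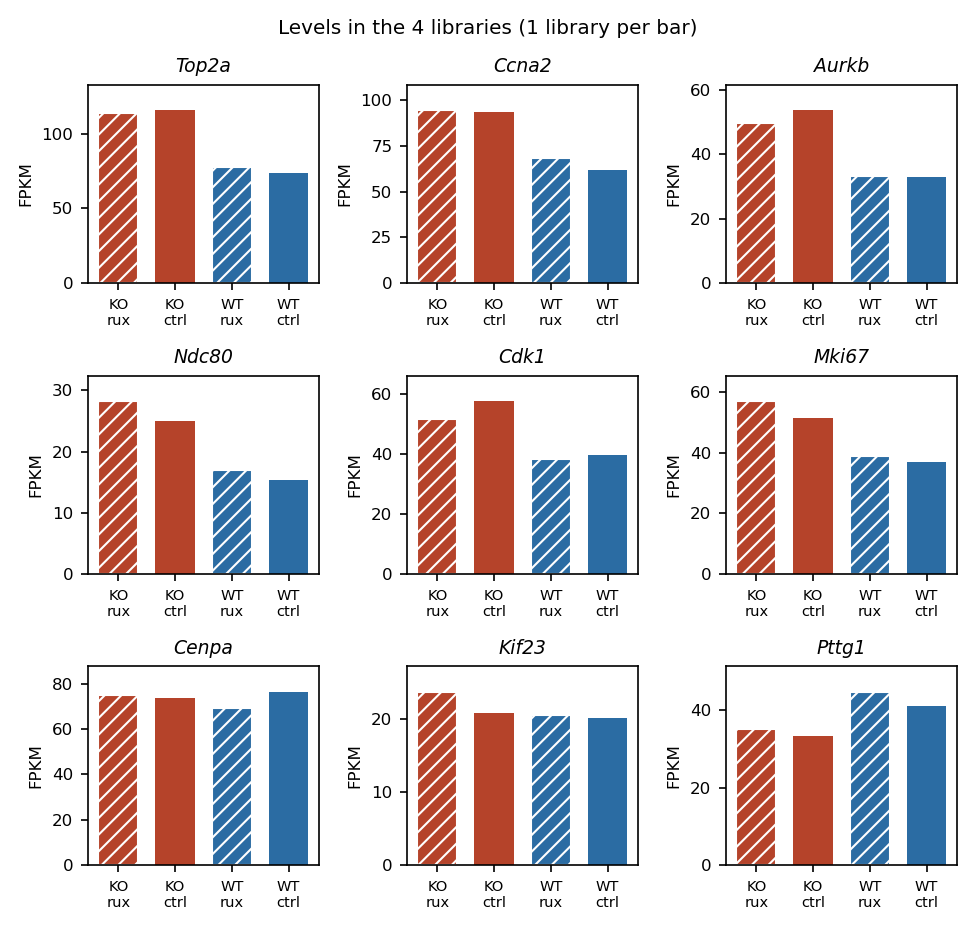
FPKM of 9 mitosis genes in the 4 libraries, 1 library per bar (KO, knockout in red; WT, wild type in blue; hatched bars, with ruxolitinib, rux; plain bars, control, ctrl). The knockout bars are the taller for the first 6 genes, by genotype and not by drug, while Cenpa overlaps between genotypes, Kif23 is close and Pttg1 is lower in the knockout.

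Levels of the mitosis genes with ruxolitinib lay close to those without it in both genotypes. In wild type the median log2 ratio was 0.09, beside 0.01 for all measured genes, and 33 of 45 ratios were above 0, against 51.9% of measured genes. No mitosis gene was 1.5-fold higher or lower, against backgrounds of 1.05% and 2.64%. In the knockout the median was 0.04, beside 0.00, with 31 of 45 ratios above 0, against 50.8%, and again 0 genes at 1.5-fold, against 1.67% higher and 2.2% lower. In the authors' deposited table none of the 45 genes had a q-value of at most 0.05 in wild type, where 2.39% of tested genes were higher and 4.13% lower, or in the knockout, where the shares were 4.85% and 4.73%. The ratios ran from -0.15 to 0.20 in wild type and from -0.27 to 0.25 in the knockout. Many are as small as the counting error can give.

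The signs of these small ruxolitinib ratios differed between genotypes for 8 genes, or 17.8% of the list, close to the 22.9% of measured genes. They were below 0 in both for 9 genes, Ccnb1, Cdk1, Plk1, Aurka, Cdca8, Tpx2, Cdc20, Ube2c and Hmmr, or 20% of the list, compared with 36.5% of measured genes. They were above 0 in both for 28 genes, or 62.2%, compared with 39.7%. On the TPM scale the wild-type ratios of Plk1 and Hmmr and the knockout ratio of Cdc20 turned positive. Tpx2, the activator of Aurka, had the lowest ratio in each genotype, -0.27 in the knockout and -0.15 in wild type. It was at 51.8 FPKM with ruxolitinib and 62.4 FPKM without it in the knockout, and at 38.6 FPKM with it and 43.0 FPKM without it in wild type.

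Foxm1 had the highest ruxolitinib ratio in wild type, 0.20, and 0.18 in the knockout. Ccnb2 had the highest in the knockout, 0.25, and 0.14 in wild type. The B-type cyclins therefore stood on opposite sides of 0, with Ccnb1 at -0.12 in the knockout and -0.15 in wild type. Across the 45 genes the ratios in the 2 genotypes, which share no library, correlated at 0.69 (Pearson's r) and 0.65 (Spearman's rank coefficient), while over all measured genes these were 0.16 and 0.68. Over all measured genes the ratios ran from -7.43 to 7.27 in wild type and from -7.16 to 7.40 in the knockout. Such extreme values weigh on Pearson's r, and by rank the list lay close to the background. These correlations too are a description across genes, which are not independent. The difference between the ruxolitinib ratios, knockout minus wild type, had a median of -0.03 and ran from -0.17 for Spc25 to 0.17 for Cdc25c. It has no replicate and was not tested.

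**Figure D3:**
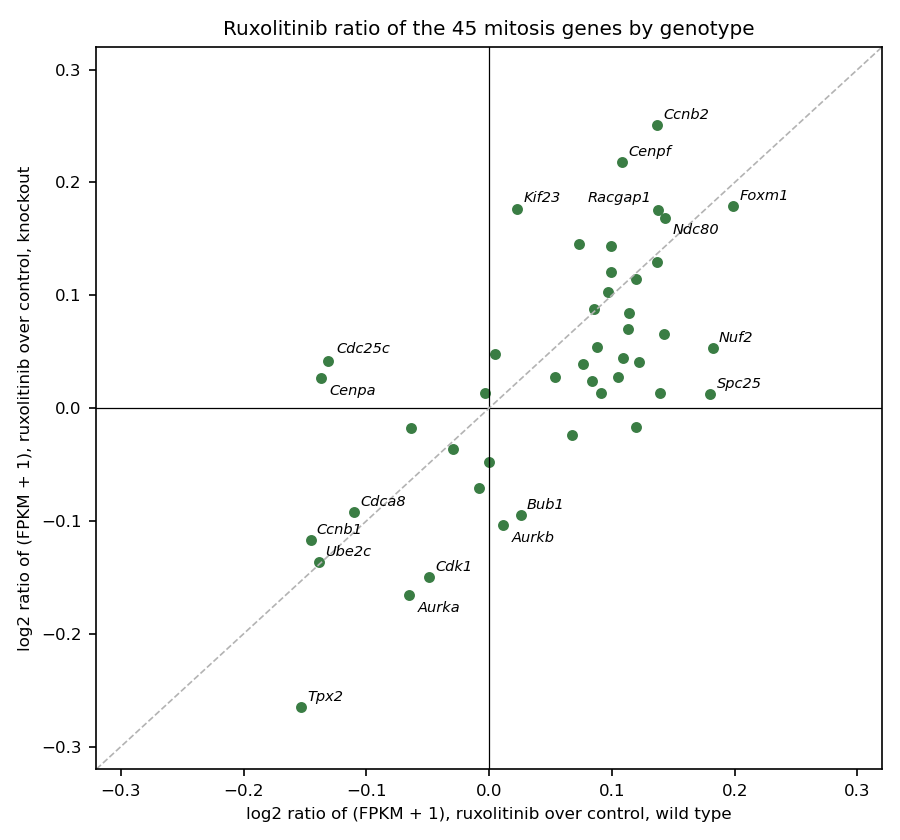
Log2 ratio of (FPKM + 1), ruxolitinib over control, in the knockout (vertical) and in wild type (horizontal) for the 45 mitosis genes, 1 point per gene; the dashed line marks equal ratios, and genes far from 0 are named. All points lie within 0.27 of 0 on both axes, with Tpx2 lowest and Ccnb2 and Foxm1 highest.

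**Figure D4:**
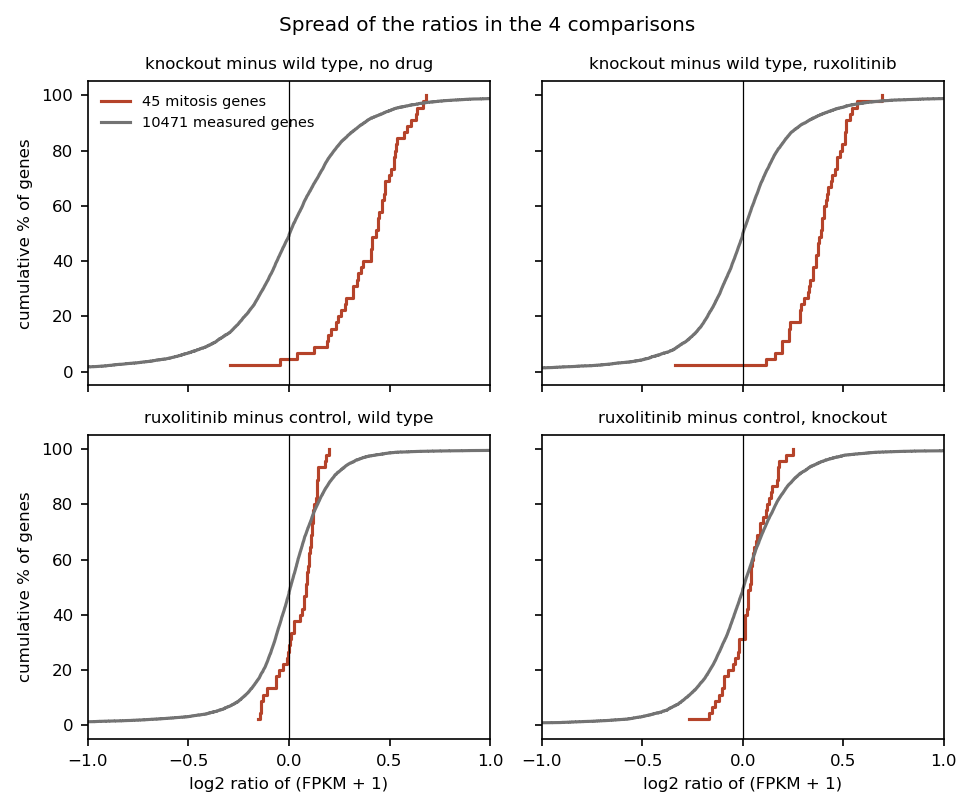
Cumulative share of genes by log2 ratio of (FPKM + 1) in the 4 comparisons, for the 45 mitosis genes (red) and the 10471 measured genes (grey, cut at -1 and 1). The red curves lie well right of the grey in both knockout comparisons, with medians of 0.39 with ruxolitinib and 0.43 without, and near it in both ruxolitinib comparisons.

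Other genes of mitosis had similar ratios. In a list of 108 further genes of mitosis, all measured, 102 had positive knockout ratios with ruxolitinib and 101 without, and the medians were 0.39 and 0.41. At 1.5-fold or more, 5 of the 108 were higher with ruxolitinib and 20 without, beside 2.97% and 3.88% of measured genes, so the count with drug was close to the background. None was as far lower in either, beside 3.34% and 5.06% of measured genes. Condensin and cohesin genes had medians of 0.37 with drug and 0.42 without, and further kinetochore genes 0.43 and 0.48. The APC/C subunits, whose proteins are needed through much of the cell cycle, had the lowest medians of these groups, 0.14 and 0.18, and 0 of 13 were at 1.5-fold.

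The 5 genes of the wider list with the highest mean of both knockout ratios were Mybl2, Sass6, Fbxo5, Pbk and Ncaph. Mybl2, which encodes B-Myb, was at 11.6 FPKM with ruxolitinib and 12.8 without it in the knockout, against 7.07 with and 6.71 without it in wild type. Fbxo5, which encodes the APC/C inhibitor Emi1, was at 34.1 and 32.5 FPKM in the knockout and 22.6 and 18.9 FPKM in wild type, with ruxolitinib first. The centriole gene Sass6 had ratios of 0.73 with drug and 0.74 without, the kinase gene Pbk 0.54 and 0.78, and the condensin gene Ncaph 0.62 and 0.64. The lowest 5 were Mad2l1bp, Kif3b, Anapc10, Haus8 and Cenpt. Mad2l1bp, whose product takes Mad2 out of the checkpoint complex, was at 36.4 FPKM with ruxolitinib and 45.003 without it in the knockout, against 38.3 with and 63.7 without it in wild type. It was the only gene of the wider list at least 1.5-fold lower with ruxolitinib in wild type, at a log2 ratio of -0.72, and the wild-type control library stood above the other 3.

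S phase replication genes differed in the same direction and by more. All 36 had positive knockout ratios with and without drug, with medians of 0.59 with ruxolitinib and 0.72 without, and 19 and 30 of them were at least 1.5-fold higher, beside 2.97% and 3.88% of measured genes. Cdt1, which licenses origins, was at 33.2 FPKM with ruxolitinib and 31.3 without it in the knockout, against 18.9 with and 16.3 without it in wild type, and Tyms, which makes thymidylate, had ratios of 0.81 and 0.87. The lowest of the list were Gins4, at 0.23 with drug and 0.38 without, and Pola2, at 0.34 and 0.51. The difference between the replication and the mitosis list was not tested. Of 15 quiescence-linked genes 13 were measured, with medians of -0.04 with ruxolitinib and -0.32 without. By the mean of both ratios the highest were Cdkn2c, an inhibitor of the G1 kinases, at ratios of 0.38 and 0.42, and Btg2, at 0.73 and -0.06 but at most 1.71 FPKM, and the lowest were Txnip, at -0.75 and -0.78, and Btg1, at -0.36 and -0.78. Without drug alone Klf2, named after its values were seen, was lower still, at -1.10.

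**Figure D5:**
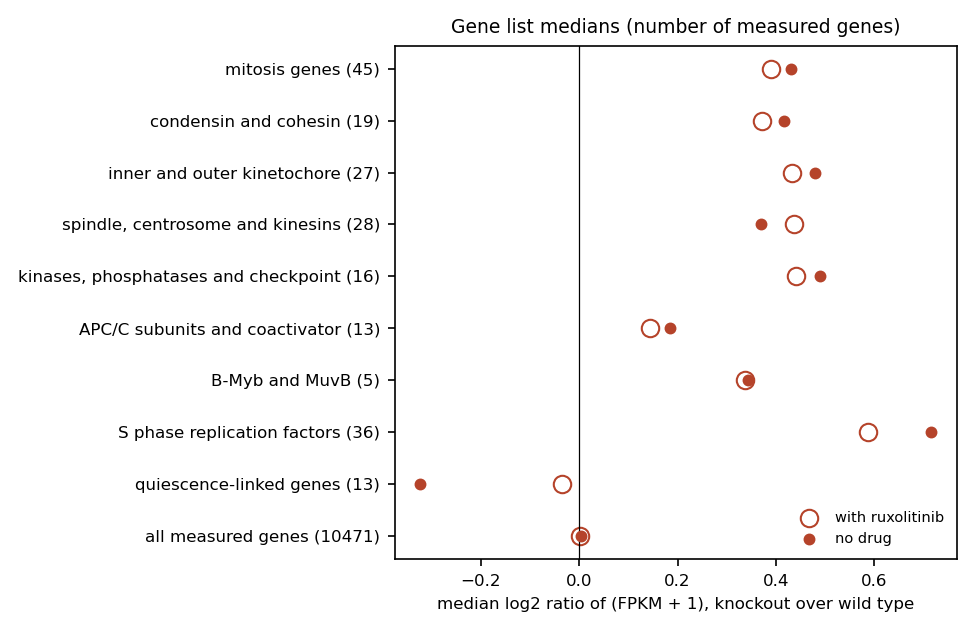
Median log2 ratio of (FPKM + 1), knockout over wild type, of the 45 mitosis genes, the 6 groups of the wider mitosis list, 2 companion lists and all measured genes, with the number of measured genes in brackets; open circles are with ruxolitinib, filled circles without drug. The S phase list lies highest, at 0.59 and 0.72, the APC/C subunits lowest of the mitosis groups, at 0.14 and 0.18, and the quiescence-linked genes at -0.04 and -0.32.

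Markers of cell types moved with genotype beside these differences. The 14 mast cell markers, of which 13 were measured, summed to 23475 FPKM in the knockout with ruxolitinib and 19718 FPKM in the knockout control, against 31593 FPKM in wild type with ruxolitinib and 28055 FPKM in the wild-type control. Cma1 and Fcer1a made up most of that sum, with knockout ratios of -0.65 and -0.72 with ruxolitinib and -0.72 and -0.70 without. Tpsab1 of the same list was higher in the knockout, with ratios of 1.99 with drug and 1.13 without. Of the 13, 6 had positive knockout ratios with ruxolitinib and 2 without, and Cpa3 was listed at 0 in all 4 libraries. Of 12 stem and early progenitor markers 7 were measured, with medians of -0.17 and -0.21, and of 9 megakaryocyte markers 4 were, with -0.04 and -0.17. Summed levels of these 2 lists lay between 1429 and 1871 FPKM and between 489 and 582 FPKM in the knockout, against 1816 to 2184 FPKM and 710 to 785 FPKM in wild type. Itga2b made up most of the megakaryocyte sum, while Itgb3 of the same list was higher in the knockout, with ratios of 0.90 with drug and 0.45 without. Ly6a, Kit and Cd34 made up most of the stem and progenitor sum. Of these, Ly6a had knockout ratios of -0.46 with drug and -0.68 without, and Kit -0.20 and -0.21. Cd34 was slightly higher in the knockout, at 0.11 and 0.05, and Cd48 was higher by more, at 1.10 and 0.87. Of the 7 measured, 3 had positive knockout ratios with drug and 3 without.

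Erythroid markers, 4 of 12 measured, summed to 83.6 to 92.9 FPKM in the knockout and 63.1 to 72.5 FPKM in wild type. Of that sum, Tfrc and Car2 made up most. Granulocyte and monocyte markers, 3 of 15 measured, summed to 37.6 to 40.3 FPKM in the knockout and 98.8 to 119.1 FPKM in wild type. Ctsg made up most of that sum, with knockout ratios of -1.95 with drug and -1.70 without, and Elane and Ltf were at or near 0. Of the 3 measured, 1 had a positive ratio with drug, Lyz2 at 0.56, and 0 did without. Mpo, below the filter, was higher in the knockout, at 1.31 FPKM with drug and 1.13 without, against 0.0445 and 0.0380 FPKM in wild type. Lymphoid markers, 1 of 12 measured, summed to at most 2.04 FPKM in the knockout and 1.46 FPKM in wild type. The part of these shifts, and of sex, in the higher mitosis levels was not tested.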

How the data were processed

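Ribosomal RNA was removed from total RNA before Illumina libraries were made, per the labels' protocols. STAR and Cuffdiff were used with mm10, per the submitters' processing notes, while their versions and the annotation were not given in the sources used here. For 24340 genes in 4 libraries FPKM values were deposited, and any scaling between libraries is not stated. Their second deposited table gives log2 fold changes without a pseudocount and q-values, of which 4 of 6 comparisons were used. The loci of that table start at 0 and were shifted by 1 base. They can be wider than the gene. For Cdc25b the locus starts at 131127412, before its RefSeq promoter window at 131186698 to 131186997.

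Each library was placed in its group by its title. Ratios were taken on log2(FPKM + 1), a scale that shrinks the differences of low genes, and a mean of 1 FPKM or more was required. Calls were made at 1.5-fold. The members and lists were chosen with earlier results of these data known. Values in all 4 libraries were given for the highest and lowest gene of each functional group by the knockout ratio without drug, every gene at 1.5-fold in any comparison and 9 fixed genes; Tpx2 was added after its values were seen. From the wider list of 108 genes the 5 highest and 5 lowest were named, and from each companion list the 2 highest and 2 lowest. The 6 printed promoters were chosen after the matches were seen.

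Depth came from the steps between low values of genes with a single long transcript, and 78.4% to 82.1% of low values set aside lay within 0.15 of a whole multiple, where chance gives 30%. Fragments per gene used the longest GENCODE M21 transcript and are estimates. The ratio step was tested on simulated data. Alternatives were pseudocounts of 0.1 and 5, no filter, a mean of 5 FPKM, median centring, TPM and a 2-fold rule. Scripts ran in Python 3.11.15 with pandas 2.3.3, numpy 2.4.6 and scipy 1.17.1, and figures in matplotlib 3.10.9.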

Additional observations from a re-analysis of the deposited data

Results flagged for a closer look

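Cenpa, the centromeric histone, was the only one of the 45 mitosis genes whose knockout ratio had opposite signs without and with drug, 0.12 with ruxolitinib and -0.05 without. With 1 library per group this difference was not tested.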

How the results depend on the processing

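No paired analysis was possible because each group has 1 library. All 45 genes had a mean above 5 FPKM, the lowest being Cenpf at 7.16 FPKM. Using no filter, or a mean of at least 5 FPKM, therefore could not change their medians and counts. Only the background moved. In the knockout without drug 3.88% of genes were at least 1.5-fold higher with the filter used, 1.9% with none and 3.36% at 5 FPKM. The median knockout ratios with and without ruxolitinib were 0.40 and 0.44 with a pseudocount of 0.1, 0.35 and 0.37 with a pseudocount of 5, and 0.53 and 0.58 on the TPM scale. Without drug, 2 genes were at least 1.5-fold higher with a pseudocount of 5 and 22 on the TPM scale, where 14 were with drug, and 0 in either reached 2-fold. The median ruxolitinib ratio in the knockout and in wild type was 0.0325 and 0.0709 with a pseudocount of 5, 0.0344 and 0.0787 with libraries centred on the median gene, and 0.0622 and 0.127 on the TPM scale. The median difference of the ruxolitinib ratios was -0.0205 with a pseudocount of 5, -0.0182 centred and -0.0439 on the TPM scale. Leaving out the X-linked Kif4, a choice made after seeing the data, gave 0.42 for the knockout without drug, and 0.0332 and 0.0846 for ruxolitinib in the knockout and in wild type. None of these medians changed sign. The main limit is the number of libraries, since the spread between animals was not measured.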
